A study of Mus musculus with 38 samples.

Results

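Gene expression of relapsed tumors was compared with that of residual tumors in the MMTV-PyMT breast cancer model, across all genes on the array. The arrays were chosen by their titles in the sample labels, which gave 4 relapsed tumors (titled as resistant) and 6 residual tumors (titled as regressed), or 10 of the 38 samples of the series. The names residual and relapsed are those of the study, matched to the titles by elimination. A further 6 untreated tumors of the same experiment were also measured. In this model the mouse mammary tumor virus promoter drives the polyoma middle T antigen in mammary epithelium. Hyperplastic lesions from donors that also carried GFP under an actin promoter were transplanted into cleared mammary fat pads of wild-type FVB/n females, so every cell of donor origin, and not only the epithelium, carried GFP. All 16 samples were breast tumor tissue of FVB/n background from which GFP-positive cells were sorted, and the untreated tumors received no drug. Residual and relapsed tumors both came from mice given docetaxel, doxorubicin and cyclophosphamide, starting 2 months after transplantation. Residual tumors were taken after the first dose and relapsed tumors after the fourth, so the groups differed in the number of doses, in time since the first dose and in the age of the mice as well as in regrowth, and these cannot be told apart. Untreated tumors were not matched to either time in the sources used here.

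Interferons are cytokines that bind receptors on the cell surface and, through Jak kinases and Stat factors, switch on large sets of genes. Interferon gamma, made mainly by T cells and NK cells, induces guanylate binding proteins, immunity-related GTPases, the immunoproteasome and MHC genes, whereas type I interferons induce chiefly the antiviral genes, and the sets overlap. Tumor cells and immune cells both respond, and MHC class I display of peptides is how T cells recognize a tumor cell.

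Each array gave a log2 ratio of tumor RNA to the same Universal mouse reference RNA, a pool used on all arrays. A value of 0 on this scale means the level of the reference, and values are compared between tumors for a gene and never between genes. Tumor signal stood well above background for 50.6% to 64.3% of the spots on the 4 relapsed arrays and for 50.7% to 60.6% on the 6 residual arrays, and no spot was saturated. Arrays of a group correlated with a median r of 0.903 to 0.941 among residual tumors and 0.918 to 0.936 among relapsed tumors. The median r with arrays of the other group was similar, at 0.885 to 0.934 for residual tumors and 0.904 to 0.941 for relapsed tumors. All 8 markers of tumor epithelium, among them Epcam and Krt8, were well above background on all 10 arrays. Residual and relapsed tumors shared only 1 slide, which held relapsed tumors 1 and 2 and residual tumor 6, and all arrays were scanned on the same day. Nothing in the labels says that the tumors came from separate mice, so p-values measure only the spread between these samples.

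Of 27669 genes tested, 59 were called lower in relapsed than in residual tumors, which is 0.213% of the genes, and 1 was called higher, which is 0.00361%. A call meant an adjusted p below 0.05 in limma, with Benjamini-Hochberg adjustment, and a log2 change of at least 1. The falls ran from -4.14 to -1.03 with a median of -1.63, against a median of 0.02 over all genes. By function, 32 of the 59 belonged to the gene lists described here, most of them to interferon-inducible GTPases and antigen presentation. All 59 had groups that did not overlap, meaning that the highest relapsed tumor lay under the lowest residual tumor, which largely follows from the call, made on the same values. Over all genes, 1.01% did so in this direction and 0.719% in the other. RNA came from mixed cells within the GFP sort, so fewer cells of a type and less RNA per cell cannot be told apart. With slide as a fixed block, 34 genes were called, 28 of them among the 60, and without relapsed tumor 1, 29 were called. Within the shared slide, relapsed tumors 1 and 2 lay below residual tumor 6 by a median of 1.64 over the 59 genes (range of the differences -3.41 to -0.70), which is a description, since the same 3 arrays entered the calls.

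**Figure D1:**
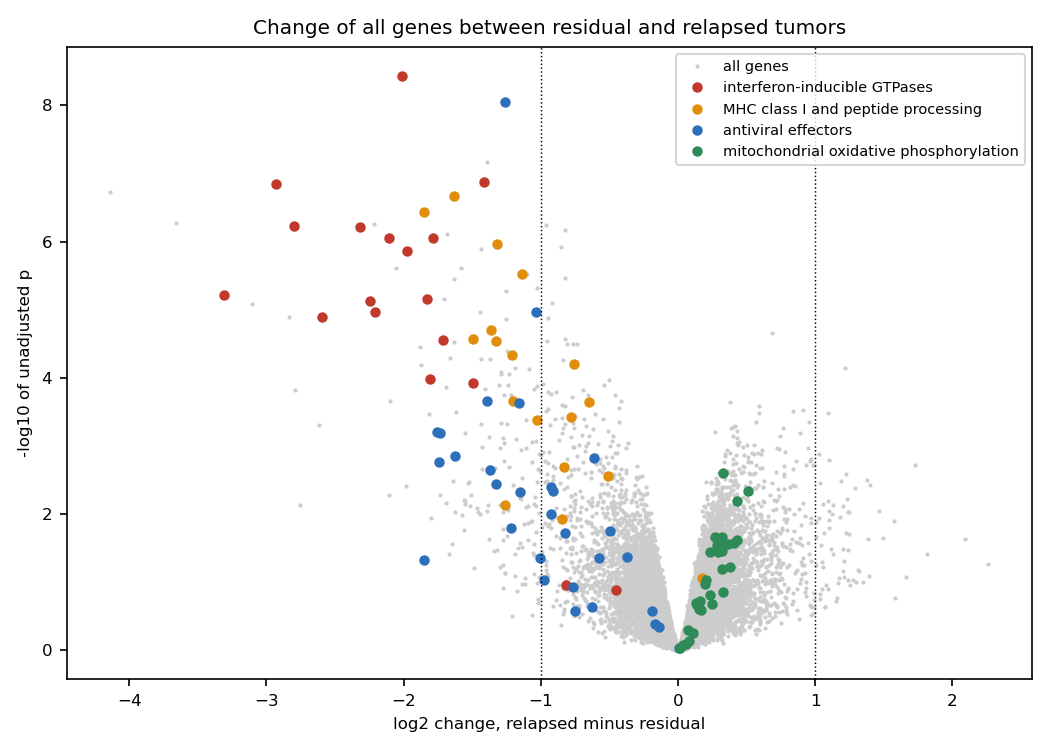
Every gene is plotted by its log2 change from residual to relapsed tumors (x axis) and by -log10 of its unadjusted limma p (y axis). Gray points are all 27669 genes, colored points are members of 4 gene lists and dotted lines mark a log2 change of 1 in either direction. The interferon-inducible GTPases and MHC class I genes lie at the upper left, and the mitochondrial genes lie just right of 0.

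Interferon-inducible GTPases had the largest share of members called among the lists. This list, like the others, was chosen with earlier results of these data known. Of 18 measured members, 16 were called lower, against 0.213% of all genes, none was called higher, and the median change was -1.99. The remaining pair, Mx1 at -0.45 and Mx2 at -0.81, did not pass the test. The proteins of this list bind GTP, and the immunity-related GTPases and guanylate binding proteins among them act against the vacuoles in which intracellular parasites and bacteria live.

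The immunity-related GTPases were represented by Tgtp1, Igtp, Iigp1, Ifi47, Irgm1 and Irgm2. Tgtp1 had log2 ratios of -0.19, 0.14, 1.0 and 1.30 in the 4 relapsed tumors and of 3.02, 4.0 and 4.27 (lowest, median and highest) in the 6 residual tumors. It fell 9.89-fold (log2 change -3.31, SE 0.50, adjusted p = 0.00562), and the groups lay far apart. A second probe for Tgtp1 gave -1.11, and the near-identical Tgtp2 can contribute to either probe. Igtp stood at 1.36, 2.30, 2.74 and 3.36 in relapsed tumors and at 4.50, 4.94 and 6.05 in residual tumors. Its fall was 6.05-fold (adjusted p = 0.00884), and relapsed tumor 1 was the lowest of the 10. Iigp1, the effector that coats vacuoles, was at 3.03, 4.40, 4.17 and 4.63 in relapsed tumors against 6.50, 6.88 and 7.17 in residual tumors. That is a 6.96-fold fall (SE 0.35 on the log2 scale, adjusted p = 0.00128). Ifi47 showed 1.29, 1.87, 2.41 and 2.80 against 4.08, 4.36 and 4.74, a 4.99-fold fall (adjusted p = 0.00128). In both genes the residual tumors were tightly grouped and the relapsed tumors were spread more widely. Irgm1, a regulatory member that keeps the effectors off the cell's own membranes, fell by 1.78 on the log2 scale (adjusted p = 0.00143), and Irgm2 fell by 1.83 (adjusted p = 0.00594). Of the other probes for Irgm1, 1 gave -1.88, and the other, above background on 0 of the 6 residual arrays, gave -0.10.

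Guanylate binding proteins, larger GTPases that assemble on pathogen vacuoles and promote inflammasome activation, fell in all 9 measured members. Gbp6 had values of 0.76, 1.06, 1.98 and 2.12 in relapsed tumors and 3.91, 4.39 and 5.20 in residual tumors. Its change was -2.93 (SE 0.33, adjusted p = 0.000781), a 7.62-fold fall with no overlap. Gbp2b, the mouse gene also written Gbp1, was at -0.73, -0.55, -0.54 and -0.45 against 0.99, 1.38 and 1.83. Its 4.03-fold fall had the smallest adjusted p of the family (0.000101), and the 4 relapsed tumors lay close together. Gbp5, a promoter of inflammasome assembly, showed 1.03, 1.16, 1.40 and 1.54 against 2.92, 3.43 and 3.86, a 4.30-fold fall (adjusted p = 0.00143). Gbp9 was at -0.32, 1.12, 1.28 and 1.04 against 2.63, 3.03 and 3.50, a 4.75-fold fall (adjusted p = 0.00618) that its second probe matched at -2.13. Here relapsed tumor 1 lay well below the other 3. Gbp4 (-2.21), Gbp8 (-1.98), Gbp2 (-1.71) and Gbp7 (-1.41) were also called lower. Tumor signal of Gbp4 was above background on 2 of the 4 relapsed arrays and that of Gbp8 on 1 of 4, so their relapsed values lay near background. Gbp3 was at 1.46, 3.13, 3.10 and 3.02 against 3.82, 4.54 and 5.38. Its fall of 1.81 on the log2 scale (adjusted p = 0.0415) remained a call in 9 of 23 other settings. Gvin1, a very large GTPase, fell by 1.49 on the log2 scale (adjusted p = 0.047), a call that remained in 5 of 23 other settings. Guanylate binding protein genes lie in 2 clusters of similar sequence, so probes can share signal. With slide as a fixed block, 10 of the 18 GTPases were called and the calls of Gbp3, Gbp4, Gbp5, Gbp9, Irgm2 and Gvin1 were lost. Without relapsed tumor 1, 11 were called and those of Igtp, Gbp2, Gbp3, Gbp4 and Gvin1 were lost.

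**Figure D2:**
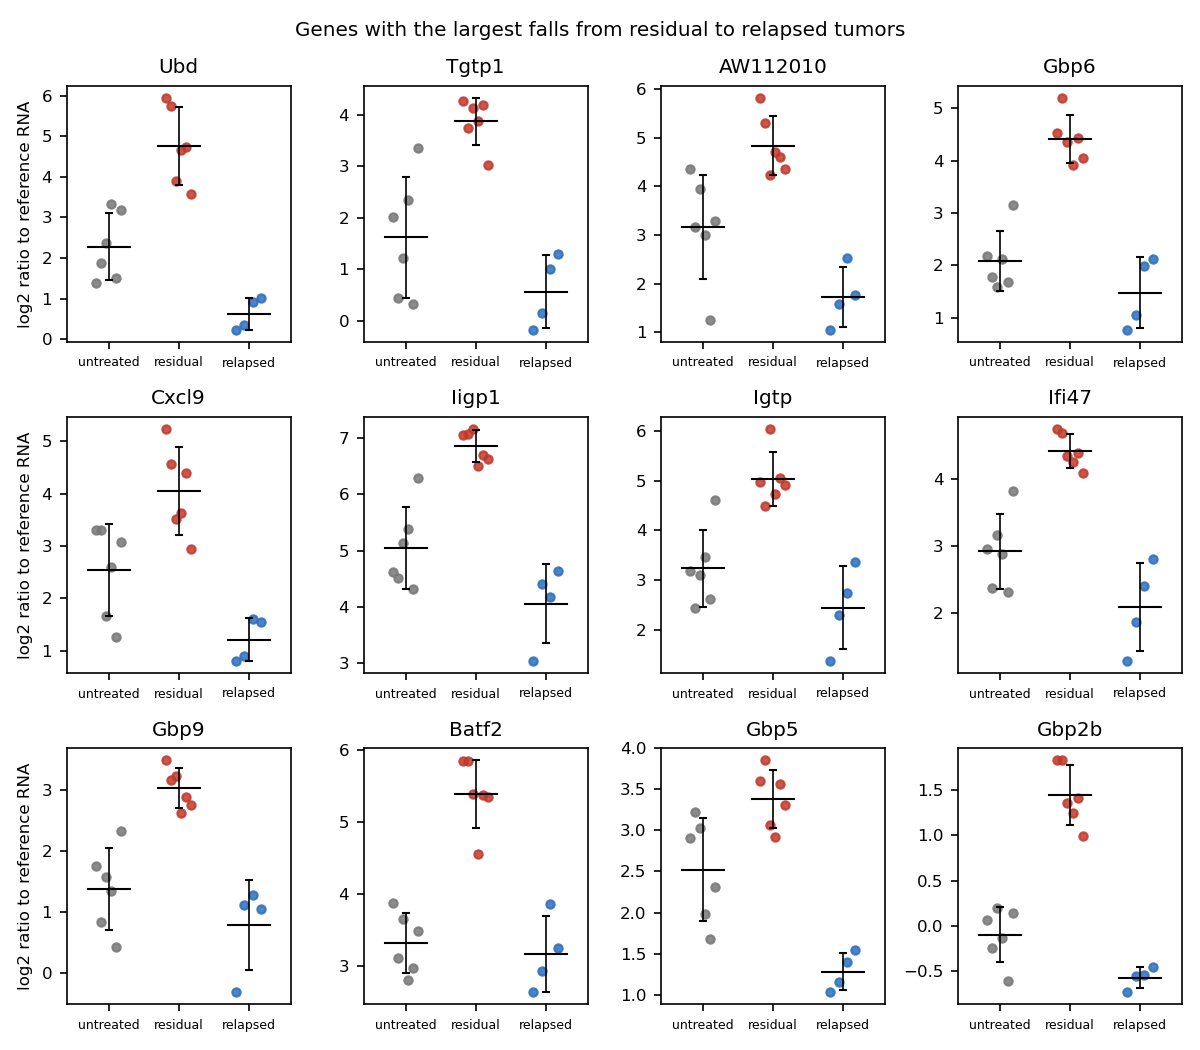
The 12 largest falls among genes that were called, had a RefSeq symbol and had tumor signal well above background on all 10 arrays are shown one per panel, with the log2 ratio to reference RNA on the y axis. Points are tumors (6 untreated, 6 residual, 4 relapsed), lines are group means and bars are SD. The choice of genes required the 4 relapsed tumors to lie below the 6 residual tumors. In every panel the mean of the untreated tumors lies between the means of these groups.

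Promoter sequences of genes called lower were read for motifs that interferon signaling factors are known to bind. RefSeq promoters of build GRCm38.p6 (250 bases before the start to 50 after) were matched for 34 of the 59 genes called lower. The gamma-activated site, spelled TTCNNNGAA, binds Stat dimers, and the interferon-stimulated response element core, spelled GAAANNGAAA, binds Irf proteins and the Stat complex formed after type I interferon. Both were searched on both strands. Among the 34 genes, 15 (44.1%) held the response element core and 8 (23.5%) held the gamma-activated site, against 3.99% and 9.55% of 27025 genes with a promoter. At least 1 of the motifs was found in 18 of the 34 (52.9%), against 12.9% of the 27025. Ubd, Cxcl9, Ifi47, AW112010, Psmb9, Psmb10 and Tap1 were among those that held neither. Of 11 interferon-inducible GTPases with a promoter, 10 held the response element core and 6 held the gamma-activated site. Of 26 antiviral genes with a promoter, 15 (57.7%) held the core and 8 (30.8%) the gamma-activated site, though 2 of 30 were called. Of 17 class I genes with a promoter, 5 (29.4%) held the core and 2 (11.8%) the gamma-activated site, with 8 of 18 called. Such a match shows letters, not binding, and no factor was measured here. The stretches of 250 bases that end at the start site are printed for Irf1 (chr11:53769764-53770013, + strand, the first of 2 RefSeq starts), Gbp2 (chr3:142620413-142620662, + strand), Igtp (chr11:58199306-58199555, + strand), Irgm1 (chr11:48871421-48871670, - strand) and B2m (chr2:122147437-122147686, + strand), because they cover a transcription factor, a guanylate binding protein, 2 immunity-related GTPases and a class I gene. All of the printed stretches come from genes that held a motif. Capitals mark the motifs, which in Gbp2 were matched on the opposite strand.
Irf1: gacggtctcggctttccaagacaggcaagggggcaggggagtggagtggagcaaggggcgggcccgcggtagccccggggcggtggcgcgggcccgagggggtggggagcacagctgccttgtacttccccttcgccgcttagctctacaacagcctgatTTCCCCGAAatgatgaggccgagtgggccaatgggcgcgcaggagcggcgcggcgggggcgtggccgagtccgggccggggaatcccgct
Gbp2: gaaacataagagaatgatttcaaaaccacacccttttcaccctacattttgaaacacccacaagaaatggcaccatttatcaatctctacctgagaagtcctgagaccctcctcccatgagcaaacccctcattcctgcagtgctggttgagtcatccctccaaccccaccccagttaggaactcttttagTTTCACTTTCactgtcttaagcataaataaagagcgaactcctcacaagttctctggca
Igtp: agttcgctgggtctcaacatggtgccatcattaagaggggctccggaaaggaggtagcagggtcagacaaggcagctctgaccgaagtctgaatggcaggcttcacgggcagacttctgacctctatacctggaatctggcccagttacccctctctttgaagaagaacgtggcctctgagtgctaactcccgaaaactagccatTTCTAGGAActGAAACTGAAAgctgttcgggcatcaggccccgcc
Irgm1: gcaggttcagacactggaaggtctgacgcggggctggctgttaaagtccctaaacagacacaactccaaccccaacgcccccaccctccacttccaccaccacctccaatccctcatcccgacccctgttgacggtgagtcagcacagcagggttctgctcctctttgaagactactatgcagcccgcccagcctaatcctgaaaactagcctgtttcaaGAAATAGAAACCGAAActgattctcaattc
B2m: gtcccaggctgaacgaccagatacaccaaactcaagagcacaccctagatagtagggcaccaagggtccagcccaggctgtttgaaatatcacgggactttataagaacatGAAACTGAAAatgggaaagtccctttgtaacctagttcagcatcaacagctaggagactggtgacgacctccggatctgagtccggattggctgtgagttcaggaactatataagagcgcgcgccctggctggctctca

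In Igtp both motifs occur side by side, the gamma-activated site from 45 bases and the response element core from 34 bases before the start. Irgm1 carries 2 overlapping cores, which begin 30 and 24 bases before the start. In Irf1 the gamma-activated site begins 90 bases before the start, and the core of B2m begins 139 bases and that of Gbp2 59 bases before the start.

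Of 18 measured genes of antigen presentation through MHC class I, 8 were called lower, against 0.213% of all genes, and none higher. The median was -1.17, and 15 had groups that did not overlap, against 1.01% of all genes. B2m encodes the light chain that every class I molecule needs. It had log2 ratios of -0.34, 0.41, 0.34 and 0.22 in relapsed tumors and 1.39, 1.77 and 2.13 in residual tumors. The fall was 3.11-fold (log2 change -1.64, SE 0.19, adjusted p = 0.000842), and its other probes gave -1.60 and -1.50. The immunoproteasome subunits Psmb9 and Psmb10, which replace standard catalytic subunits and change the peptides produced, fell together. Psmb9 was at -0.03, 1.04, 0.84 and 1.03 against 2.23, 2.53 and 3.11, a 3.61-fold fall (adjusted p = 0.00128). Psmb10 fell 2.49-fold (adjusted p = 0.00164), while Psmb8, the other immunoproteasome subunit, changed by -1.21 and did not pass (adjusted p = 0.0651). Peptide transport and loading were represented by Tap1 at -1.49 (adjusted p = 0.0162) and the tapasin-like editor Tapbpl at -1.14 (adjusted p = 0.00336). Psme1, a subunit of the proteasome activator, had an adjusted p of 0.0287 but a change of -0.76, under the required size.

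Class I heavy chain genes called lower numbered 9, of which 6 lay outside the list and changed by -1.71 to -1.23. In the list, H2-T22 (-1.36), H2-T23 (-1.32) and H2-Q7 (-1.21) were called. H2-T23, which supplies the nonclassical molecule seen by NK receptors, was at 0.69, 1.06, 1.14 and 1.40 in relapsed tumors and at 2.25, 2.41 and 2.54 in residual tumors. The classical genes did not pass on the chosen probes: H2-K1 changed by -0.83 (adjusted p = 0.229) and H2-D1 by -1.03 (adjusted p = 0.0973), both without overlap, and H2-K1 passed under 4 of 23 other settings. Other probes for H2-K1, both above background on 6 of 6 residual arrays, gave -1.53 and -1.30. In the limma fit of every probe their adjusted p was 0.0231 and 0.0624, so the first of them met both thresholds of a call. Class I heavy chains are near-identical over long stretches, so single H2 genes are uncertain and a probe can report several of them. With slide as a fixed block, 3 of the 18 genes of the list were called (B2m, H2-T23 and H2-Q7), and without relapsed tumor 1, 4 were called (B2m, Psmb9, Psmb10 and Tapbpl).

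MHC class II genes all had negative changes, with a median of -0.91 over 10 measured members, but 1 passed the test. Over all genes, 0.213% were called lower. H2-DMa, which helps load peptides onto class II, was at -0.59, -0.86, -0.43 and -0.63 in relapsed tumors and at 0.40, 0.88 and 1.78 in residual tumors (change -1.66, adjusted p = 0.0247). Cd74, the invariant chain, had a change of -2.79 with residual tumors between 0.43 and 2.74 and relapsed tumors between -1.72 and -0.80. Its adjusted p was 0.0514, and it passed under 9 of 23 other settings tried. H2-Aa stood at 0.92, 1.32, 2.30 and 1.45 against 3.40, 4.03 and 5.41 (change -2.62, adjusted p = 0.105). Residual tumors differed widely from each other in these 3 genes. The call of H2-DMa was lost with slide as a fixed block and without relapsed tumor 1.

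**Figure D3:**
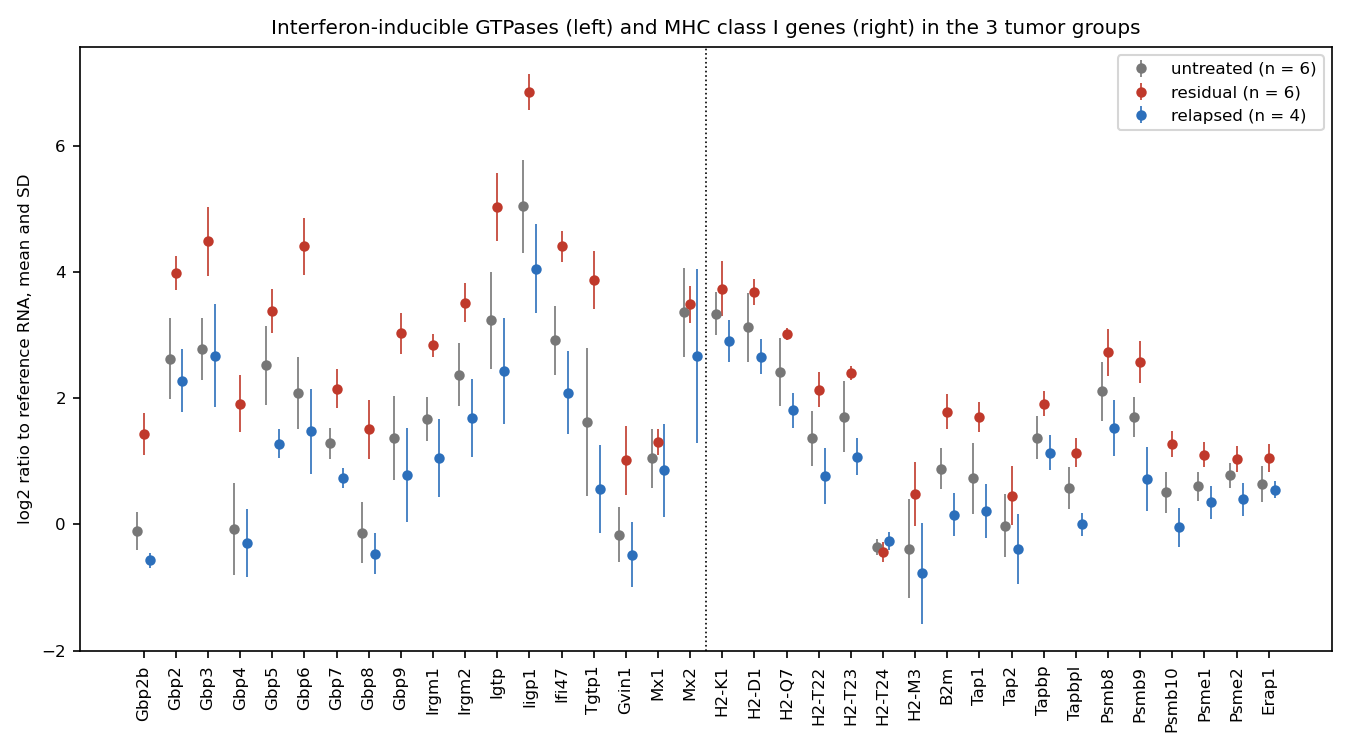
Group means with SD of the log2 ratio to reference RNA are shown for the 18 interferon-inducible GTPases and the 18 MHC class I genes measured. Residual tumors (n = 6) are the highest group for nearly all genes, relapsed tumors (n = 4) the lowest, and untreated tumors (n = 6) lie between.

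Among chemokines and other secreted or inducible products, 3 of 10 were called lower, against 0.213% of all genes, with a median of -1.27. Ubd, a ubiquitin-like protein that marks proteins for the proteasome, had the largest fall of all genes. Its probe lies at chr17:35348129-35348188 of build mm7, the build in the array files. Ubd had log2 ratios of 0.22, 0.34, 0.92 and 1.01 in relapsed tumors and 3.58, 4.70 and 5.95 in residual tumors. It fell 17.6-fold (log2 change -4.14, SE 0.47, adjusted p = 0.000842). Cxcl9, which draws T cells through Cxcr3, was at 0.81, 0.90, 1.60 and 1.54 against 2.96, 4.01 and 5.24, a 7.15-fold fall (adjusted p = 0.00884). Residual tumor 6 was the lowest of its group for both genes. Tnfsf10, the death ligand also called Trail, fell 2.71-fold (adjusted p = 0.00178), from a residual median of 2.28 to relapsed values of 0.36, 1.32, 0.67 and 1.14. Cxcl10, a relative of Cxcl9, had a change of -1.98 with overlapping groups (adjusted p = 0.304), and Ccl5 a change of 0.12. The checkpoint ligand Cd274, known as PD-L1, was at -0.57, -0.12, 0.48 and -0.43 against 0.68, 1.23 and 2.61 (change -1.55, adjusted p = 0.391). Ido1 was well above background on 6 of 6 residual arrays and on 0 of 4 relapsed arrays, which makes residual tumors at least 1.92-fold higher (adjusted p = 0.166), taking the dimmest measured signal of each relapsed array as the floor. The call of Cxcl9 was lost with slide as a fixed block and without relapsed tumor 1, and that of Tnfsf10 with the slide block.

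Upstream of these genes, the pathway itself showed few called members. Of 30 signaling genes measured, 26 had negative changes, 1 was called lower, none was called higher, and the median was -0.42. Over all genes, 0.213% were called lower. Groups did not overlap in 6 of the 30, with relapsed tumors lower, against 1.01% of all genes in this direction. Ifng itself was well above background on 5 of 6 residual and 0 of 4 relapsed arrays (adjusted p = 0.465). By the rule used for Ido1, residual tumors were 1.97-fold higher. Their mean included an array not above background, so this is not a strict lower bound. The receptor chains Ifngr1 (-0.40, adjusted p = 0.645) and Ifngr2 (-0.04, adjusted p = 0.985) did not pass. Irf1, the transcription factor that carries the interferon gamma signal to class I and GTPase genes, was the member called. It was at 0.03, 0.62, 1.08 and 1.14 in relapsed tumors and at 2.21, 2.28 and 2.79 in residual tumors. Its 3.10-fold fall (SE 0.24 on the log2 scale, adjusted p = 0.00358) appeared on its second probe at -1.43. Stat2 (-1.25), Irf7 (-1.55), Irf9 (-0.85) and the feedback inhibitor Socs1 (-1.27) had negative changes that did not pass, with adjusted p between 0.0713 and 0.209.

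Outside the lists, Batf2, a bZIP factor induced by interferon in macrophages and other cells, was at 2.64, 2.93, 3.86 and 3.25 in relapsed tumors and at 4.55, 5.38 and 5.85 in residual tumors. It fell 4.65-fold (adjusted p = 0.00128). The transcript AW112010, an interferon-induced RNA, fell 8.62-fold (adjusted p = 0.00643), with relapsed tumors between 1.04 and 2.52 and residual tumors between 4.24 and 5.82, and its call was lost with slide as a fixed block. The complement component C3, listed with myeloid genes, fell by 1.69 on the log2 scale (adjusted p = 0.0488), though its second probe gave -0.36. That call remained in 10 of 23 other settings and was lost with slide as a fixed block and without any of 9 of the 10 tumors (adjusted p up to 0.326). The sole gene called higher was 2210008N01Rik, a name with no match in the reference table. It stood at 0.91, 1.36, 0.84 and 0.34 against -0.84, -0.44 and 0.18 (change 1.22, adjusted p = 0.0309), and 11 of 23 other settings lost the call, among them slide as a fixed block and the fit without relapsed tumor 1.

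Antiviral genes, the usual readout of type I interferon, had fewer calls. Of 30 measured members, 29 had negative changes, 2 were called lower, against 0.213% of all genes, and the median was -0.95. Groups did not overlap in 9 of the 30, against 1.01% of all genes. Without relapsed tumor 1 the median was -0.60 and 1 member was called. Samhd1, which depletes nucleotides that viruses need, was at -0.51, 0.24, -0.25 and 0.02 in relapsed tumors and at 1.0, 1.12 and 1.29 in residual tumors (change -1.26, SE 0.12, adjusted p = 0.000121). Its second probe gave -0.60. Parp9 fell 2.05-fold (adjusted p = 0.00784), a call lost with slide as a fixed block and without relapsed tumor 1. Ifit1, by contrast, was at 0.76, 2.41, 4.01 and 2.33 against 2.30, 3.54 and 4.07, so the groups overlapped (change -0.98, adjusted p = 0.719). Isg15 was at -1.14, 1.30, 1.04 and 0.92 against 1.37, 1.98 and 2.16 (change -1.32, adjusted p = 0.292). In both genes relapsed tumor 1 was far below the other relapsed tumors.

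**Figure D4:**
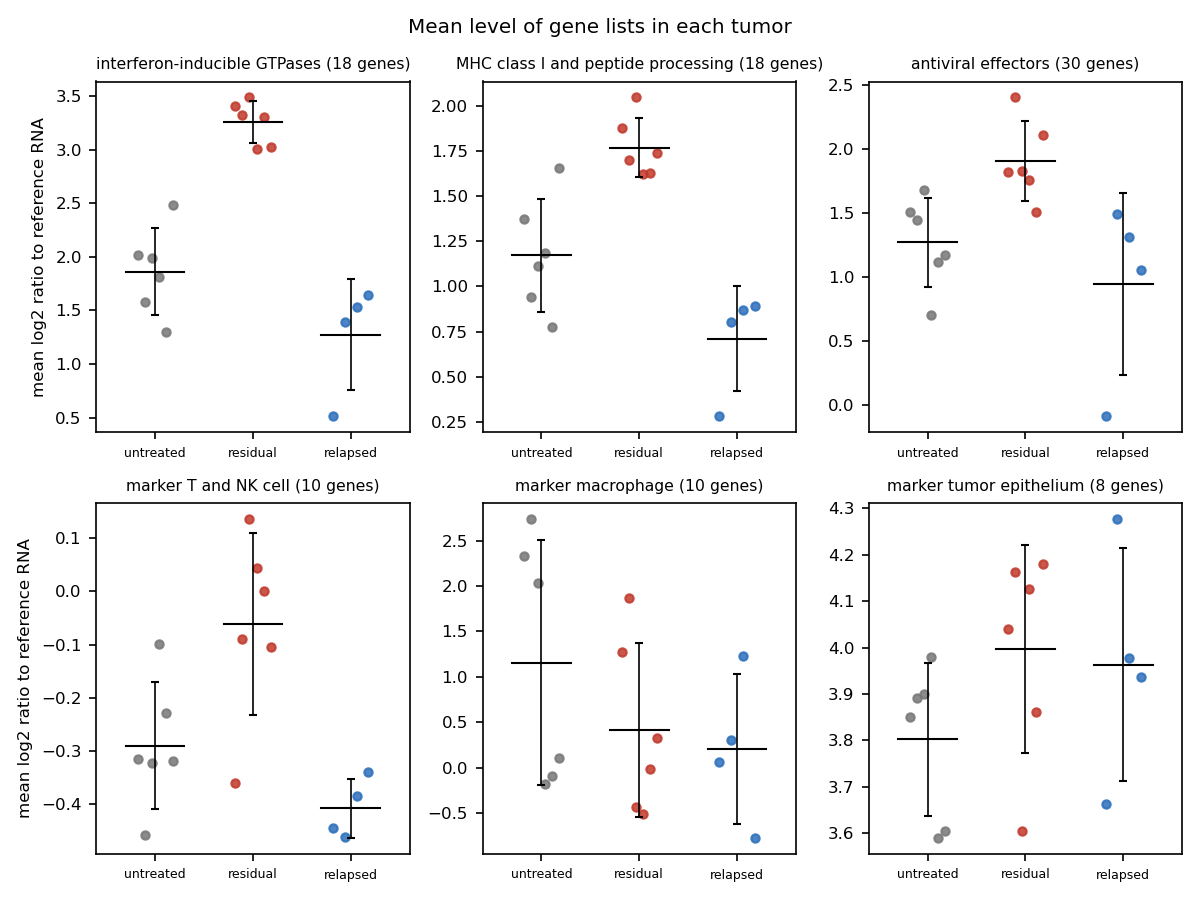
Each point is the mean log2 ratio over the genes of a list in 1 tumor, with group means and SD, and the y axes of the panels differ. Relapsed tumor 1 is the lowest tumor in the GTPase, class I and antiviral panels, and the T and NK cell markers are also lower in relapsed than in most residual tumors.

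Against untreated tumors, measured in the same fit and sharing samples with both other comparisons, the same genes can be read side by side. Ubd was 2.48 higher in residual than in untreated tumors (adjusted p = 0.0266) and 1.65 lower in relapsed than in untreated tumors (relapsed minus untreated -1.65, adjusted p = 0.325). Gbp2b was 1.54 higher in residual tumors (adjusted p = 0.0009), and relapsed minus untreated was -0.47 (adjusted p = 0.457). For Batf2 the values were 2.07 (adjusted p = 0.00298) and -0.15 (adjusted p = 0.969), and for Psmb9 they were 0.87 (adjusted p = 0.112) and -0.98 (adjusted p = 0.235). B2m was 0.91 higher in residual tumors (adjusted p = 0.037) with relapsed minus untreated at -0.73 (adjusted p = 0.29). For these 5 genes the difference between relapsed and untreated tumors did not pass the test.

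**Figure D5:**
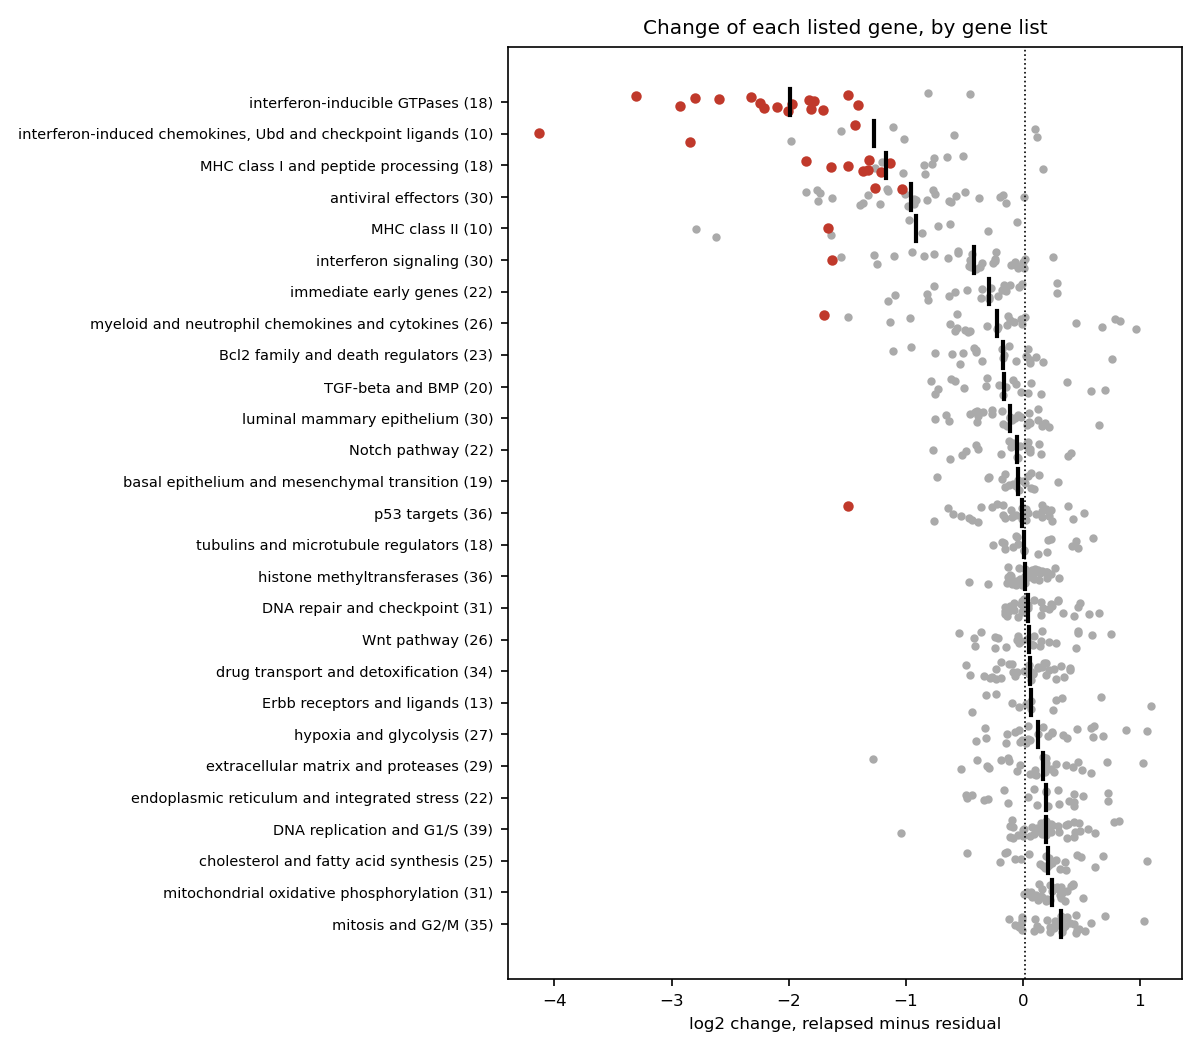
Each point is 1 gene of a list, placed by its log2 change from residual to relapsed tumors. Red points are called, gray points are not, black bars are list medians and the dotted line is the median of all genes. The 5 lists with the lowest medians all belong to interferon response and antigen presentation, and no list stands far to the right.

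Other pathways gave almost no calls. Among p53 targets, 36 genes had a median of -0.01, and the 1 call was Tap1, which is also a class I gene. Cdkn1a, the inhibitor that halts the cell cycle after damage, was at 2.21, 1.47, 0.54 and 0.90 in relapsed tumors and at 1.24, 1.62 and 2.29 in residual tumors (change -0.39, adjusted p = 0.84). Mdm2 changed by -0.46 (adjusted p = 0.644). Genes of mitosis (35 members, median 0.32) and of DNA replication (39 members, median 0.20) had positive medians with no call. Without relapsed tumor 1 these medians were 0.65 and 0.32, and over all settings they ran from 0.18 to 0.72 and from 0.14 to 0.48. The survivin gene Birc5 was the widest of these at -3.21, -1.11, 0.32 and -0.96 against -3.85, -2.33 and -0.85 (adjusted p = 0.78). All 31 mitochondrial respiratory genes had positive changes (median 0.25), and none was called, with Ndufb5 at 0.51 (adjusted p = 0.324). Immediate early genes had 20 of 22 negative changes (median -0.29) and no call, and Fos changed by -1.15 (adjusted p = 0.175). The Notch list (22 genes, median -0.05), the Wnt list (26 genes, median 0.06), drug transport and detoxification (34 genes, median 0.06), tubulins (18 genes, median 0.01) and histone methyltransferases (36 genes, median 0.02) stayed near the median of all genes with no call. Notch1 changed by -0.62 (adjusted p = 0.579), Ezh1 by 0.31 (adjusted p = 0.685), and the growth factor Areg by 1.10 (adjusted p = 0.409).

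The sort on GFP should leave out cells of the host, whereas immune cells of donor origin would carry GFP. Markers of other cells that the sort could hold moved with these genes in part. Of 10 T and NK cell markers, 9 had negative changes, 2 (Cd3d and Cd3g) had no overlap, and none was called. Over all genes, 12456 of 27669 had negative changes and 1.01% had no overlap in this direction. Only 2 of the 10 markers were well above background on all 10 arrays, and Gzma and Ncr1 were so on 0 of them. The mean log2 ratio of the 10 markers was between -0.46 and -0.34 in relapsed tumors and between -0.36 and 0.14 in residual tumors. Cd3d was at -0.25, -0.56, -0.59 and -0.19 against 0.07, 0.68 and 0.98 (change -0.95, adjusted p = 0.0784). Cd3d passed in 4 of 23 other settings, and over the settings the list gave 0 to 2 calls with a median between -0.54 and -0.17. Macrophage markers had a median of -0.24 over 10 genes with no call, with a sign that changed between settings (-0.62 to 0.14), and their mean ran from -0.77 to 1.23 in relapsed and from -0.51 to 1.87 in residual tumors. All 7 endothelium markers had positive changes (median 0.20) with no call, against 15133 of 27669 genes with positive changes. Only 3 of the 7 were well above background on all 10 arrays. The mean of the endothelium markers was between 0.08 and 0.78 in relapsed and between -0.17 and 0.12 in residual tumors. Tumor epithelium markers had a median of 0.04. The medians were -0.02 for neutrophil, 0.01 for B cell, 0.055 for dendritic cell and 0.07 for fibroblast markers. They were 0.06 for adipocyte, 0.10 for skeletal muscle and -0.001 for erythroid markers, and none of these lists had a call. Apart from fibroblast markers, no more than 3 members of any of these 7 lists were well above background on all 10 arrays. The part of these cells in the falls was not tested.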

How the data were processed

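Relapsed (4), residual (6) and untreated (6) tumors were hybridized in Cy5 against Universal mouse reference RNA in Cy3, with no dye swap. The authors deposited Feature Extraction 10.7 intensity values per spot, and a table of log2 ratios deposited by the authors served as an alternative. Their methods name normexp, loess and quantile normalization in limma, but the spread of the ratios differed between columns of that table. The median of its columns lay between 0.00472 and 0.0173, its correlation with the values used here was 0.995 to 0.999, and its slope on them was 0.94 to 1.08, so its scale is log2 and its direction sample over reference. Its 22 columns of other samples of the series were not used.

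Intensities were corrected with normexp (offset 50), loess and quantile normalization in R 4.3.3 with limma 3.58.1, leaving out outlier-flagged and control spots. A gene was read from its probe of highest mean signal, giving 27669 names from 41174 probes, 19512 with a RefSeq symbol. All 16 arrays entered 1 fit without covariates, moderated tests and Benjamini-Hochberg adjustment. Alternatives changed the background correction, the normalization within and between arrays, the probe choice, the dim filter, slide or replicate number as a block and the samples in the fit. The script was tested on simulated data. Deviations of same-numbered residual and relapsed tumors correlated at -0.39 to 0.15, so samples were treated as unpaired. So few pairs cannot exclude a pairing. Arrays have no read depth, and their number limits precision.

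The genes named were the 12 largest falls with no overlap and with signal on all 10 arrays, and called list members. The extremes and first member of each list and genes the paper names were also included. Lists and members were chosen with earlier results of these data known. 1 gene the paper names is not reported here.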

Additional observations from a re-analysis of the deposited data

Results flagged for a closer look

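Among 146 groups checked (residual and relapsed tumors, for 35 called genes and 38 list means), 11 held a tumor far from the others of its group by Dixon's criterion, and chance flags about 1 in 20 groups. Relapsed tumor 1 was the one in 5 of them: Gbp3 (1.46, next 3.02), Gbp9 (-0.32, next 1.04), H2-T22 (0.12, next 0.91), the class I mean (0.28, next 0.80) and the mean of mitosis genes (-3.25, next -2.17). For residual tumors, Igtp was highest in tumor 3 (6.05, next 5.05) and Irf1 in tumor 2 (2.79, next 2.30). In the list means, drug transport was highest in residual tumor 2 (-0.16), dendritic cell markers likewise (0.33), neutrophil markers were lowest in residual tumor 6 (1.33), and cholesterol synthesis was highest in relapsed tumor 4 (0.13). Their cause was not tested.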

How the results depend on the processing

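The main count was 60 called genes. With slide as a fixed block it was 34, of which 28 were among the 60, and with an adjusted p below 0.01 it was 36. A log2 change of 1 without a test passed 252 genes. Leaving out 1 residual or relapsed tumor gave counts between 29 and 58, and the lowest came without relapsed tumor 1, all 29 of them among the 60. The replicate block gave 56 calls, 50 of them shared, and no paired reading was used. The other settings tried gave 55 to 77 calls (deposited log2 ratios 68, scanner processed signals 63). Among interferon-inducible GTPases, 10 of 18 were called with the slide block and 11 without relapsed tumor 1, and MHC class I genes gave 3 and 4. None of the 35 named genes that were called reversed its direction. Of these, 12 kept the call in every one of 23 other settings, among them Ubd, Tgtp1, Gbp6, Gbp2b, Irf1 and B2m. Quantile normalization of mean signal alone and no normalization between arrays gave the same values (67 calls each). The 23 settings thus count that outcome more than once. The call of H2-DMa was lost with the slide block. Of 874 list medians recomputed, 25 moved beyond the spread between tumors. The cause of these shifts was not tested. Tumor signal of some genes in relapsed tumors lay near background, where the array gives only a bound.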
